A study of Mus musculus with 4 samples.

Results

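The genes described here are 10 genes of the mature dendritic cell, Ccl22, Ccl17, Fscn1, Apol7c, Ccr7, Cd83, Il4i1, Zbtb46, Batf3 and Relb, out of 43629 gene identifiers counted in primary hematopoietic stem and progenitor cells (HSPCs). They were chosen by name, with the levels of Ccl22, Fscn1 and Apol7c after loss of Chaf1b in these same libraries already known, so their change between the groups is given as a description, and how many of them pass the test used for all genes is given for completeness and supports nothing. CD117+ HSPCs of C57Bl/6 mice with the genotype Chaf1b (fl/fl) were grown with SCF, IL6 and IL3 and transduced with a retrovirus, either the empty vector MIGR1 (control, 2 libraries) or MIGR1-Cre (genotype Chaf1b (-/-), 2 libraries, called Chaf1b-deleted). Chaf1b encodes a subunit of the histone chaperone CAF-1, which assembles nucleosomes behind the replication fork. All cells carried the floxed alleles, all were sorted for the eGFP of the vector, and RNA was taken 48 h after transduction. Because Cre was present only in the Chaf1b-deleted cells, loss of Chaf1b and exposure to Cre cannot be told apart in this design. The labels give no age and do not say which libraries came from separate animals. The p-values thus measure only the spread between these libraries, which for the controls may be technical.

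A dendritic cell that matures stops sampling its surroundings and becomes a cell that travels to the lymph node and activates T cells. It gains the chemokine receptor CCR7, which guides it to lymphatic vessels, and it secretes CCL17 and CCL22, which attract T cells that carry CCR4. Fascin (Fscn1) bundles the actin of its dendrites, CD83 keeps MHC class II and costimulatory proteins at its surface, and the NF-kB subunit RelB is needed for the maturation of much of this lineage. Zbtb46 and Batf3 are transcription factors of conventional dendritic cells, Zbtb46 of the whole lineage and Batf3 of the cross-presenting branch.

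Reads counted on genes numbered between 18468637 and 25409926 in a library. Chaf1b itself had 1825 and 1471 counts in the controls against 378 and 330 after deletion. Chaf1b-deleted replicate 1 stood apart from the other libraries. Its 25 interferon-stimulated genes summed to 3313 CPM (counts scaled to a common library size, after TMM normalization). In control replicate 1, control replicate 2 and Chaf1b-deleted replicate 2 they summed to 414, 427 and 499. Xist, a transcript of female cells, had 7905 counts in Chaf1b-deleted replicate 1 against between 23 and 33 in the others. The deleted libraries thus did not hold the same cells, and between them sex and interferon-stimulated genes differed together. The controls also differed from each other, with a summed level of 7 genes (MHC class II and Ciita) of 196 CPM in replicate 1 and 983 in replicate 2. Kit, the gene of CD117, had between 103 and 122 CPM in the 4 libraries, and the myeloid progenitor gene Mpo between 2110 and 3636. Other progenitor markers differed between the groups. Myb had 476 and 484 CPM in the controls against 322 and 315 after deletion, and Cd34 had 77.0 and 76.4 against 101 and 126. In such bulk RNA, more cells of a type and more RNA per cell cannot be told apart.

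After Chaf1b deletion, both deleted libraries had more CPM than either control in 9 of the 10 genes, a pattern seen in 22.3% of the 16500 genes tested. Zbtb46 was the exception. The fold change of the mean CPM was largest for Apol7c (13.2) and Fscn1 (13.2), followed by Ccr7 (9.93), Ccl22 (7.55), Cd83 (6.21) and Ccl17 (4.83). It was lowest for Il4i1 (3.74), Batf3 (3.48), Relb (3.07) and Zbtb46 (1.19). The median log2 fold change of the 10 genes was 2.45, against -0.03 over all genes tested. All 10 passed the filter on low counts. Of the 10, Ccl22, Fscn1 and Apol7c were called higher (at least 1.5-fold, adjusted p under 0.05, edgeR's quasi-likelihood test), where 0.370% of all genes were called, and 0 were called lower, where 0.00606% were. Because these genes were named with this contrast in view, nothing is read from that count. The count also depended on the method. It was 0 where every library had to reach 10 counts (3 of all genes were called higher). It was also 0 at 2-fold and an adjusted p under 0.01 (0 of all genes). It was 7 by edgeR's exact test (which called 537 of all genes higher) and 8 by DESeq2 (472 of all genes). In the fits that lacked 1 library each, the median log2 fold change of the 10 genes lay between 1.94 and 3.03.

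**Figure D1:**
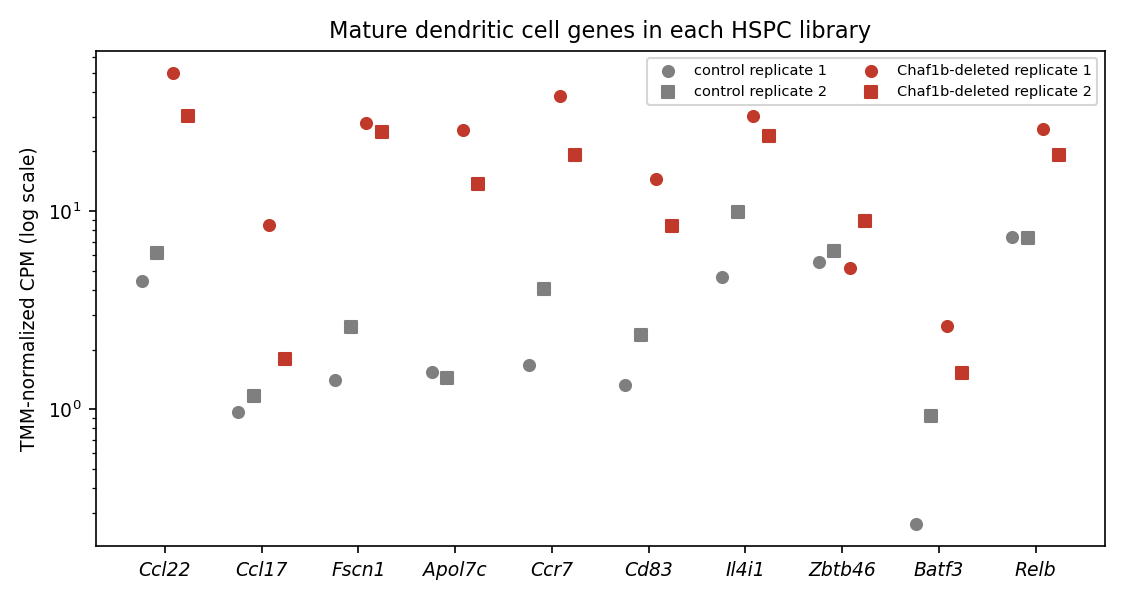
Level of each of the 10 genes in each library, as TMM-normalized CPM on a log axis, with gray points for the 2 controls and red points for the 2 Chaf1b-deleted libraries (circles replicate 1, squares replicate 2). The red points lie above the gray ones for 9 genes and straddle them for Zbtb46, whose levels run from 5.15 to 8.93.

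The proximal promoters of Ccl22, Fscn1 and Apol7c are shown because these 3 genes were the reason for the choice of the group. Sequences are the 250 bases before the RefSeq start site (build GRCm38.p6), 5′ to 3′ on the strand of the gene, with matches to the searched motifs in capitals.
Ccl22 (chr8:94745434-94745683, plus strand): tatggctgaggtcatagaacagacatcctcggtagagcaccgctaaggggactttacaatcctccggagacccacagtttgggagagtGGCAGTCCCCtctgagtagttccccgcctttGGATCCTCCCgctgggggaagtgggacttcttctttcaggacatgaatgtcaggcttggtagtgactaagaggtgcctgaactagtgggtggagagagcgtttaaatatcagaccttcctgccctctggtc
Fscn1 (chr5:142960105-142960354, plus strand): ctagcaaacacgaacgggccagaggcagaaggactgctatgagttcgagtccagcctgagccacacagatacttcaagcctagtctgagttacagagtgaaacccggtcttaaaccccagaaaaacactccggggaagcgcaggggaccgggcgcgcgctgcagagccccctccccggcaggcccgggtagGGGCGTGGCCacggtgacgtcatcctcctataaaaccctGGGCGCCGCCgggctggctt
Apol7c (chr15:77533316-77533565, minus strand): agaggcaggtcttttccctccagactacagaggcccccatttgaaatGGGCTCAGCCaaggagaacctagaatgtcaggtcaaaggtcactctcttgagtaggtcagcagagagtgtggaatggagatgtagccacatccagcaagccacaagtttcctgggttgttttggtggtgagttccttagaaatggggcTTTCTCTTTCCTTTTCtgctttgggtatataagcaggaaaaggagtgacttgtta

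The capitals mark NF-kB-type stretches (GGG and CC around a spacer of 5 bases, on either strand) in all 3 promoters, and in Apol7c also a stretch of overlapping interferon response elements (TTTC and TTTC around a spacer of 2 bases). Both strands were searched in windows of 300 bases that reach 50 bases past the start, and windows were found for 7 of the 10 genes, while Ccr7, Cd83 and Relb had no entry. The NF-kB-type stretch was in 5 of the 7 windows, in Ccl22, Fscn1, Apol7c, Il4i1 and Batf3, but also in 50.8% of all 32851 windows. In Ccl22 it lay from base -162 to -153 and from -131 to -122 before the start, and in Fscn1 from -59 to -50, from -20 to -11 and past the start. The interferon response element was rarer, in 3.44% of all windows, and of the 7 only Apol7c had it, from -55 to -46 and from -49 to -40. GAGGAA, the core bound by PU.1, was in Ccl17, Il4i1 and Batf3 (28.3% of all windows), and the AP-1 site TGANTCA was in Zbtb46 (7.81%). The ETS core CCGGAA (14.9%) and the ETS-IRF composite site (2.72%) were in 0 of the 7. For Zbtb46 and Il4i1 the RefSeq start lies 35038 and 19918 bases downstream of the first annotated start in mm9. These are matches of letters only and say nothing of what binds there.

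Ccl22 and Ccl17 encode the ligands of CCR4 and lie close together on chromosome 8 of mm9 (Ccl22 from 97269490 to 97275599, Ccl17 from 97334353 to 97335935, both on the plus strand). Ccl22 (ENSMUSG00000031779) had 101 and 158 counts in the controls against 1080 and 592 in Chaf1b-deleted replicates 1 and 2, which is 4.45, 6.12, 49.6 and 30.2 CPM. Both deleted libraries stood well above both controls, and the log2 fold change was 2.91 (standard error 0.33). Ccl17 (ENSMUSG00000031780) had 22 and 30 counts in the controls against 185 and 35 after deletion, or 0.970, 1.16, 8.50 and 1.79 CPM.

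The increase of Ccl17 was thus mostly that of 1 library. Its level in Chaf1b-deleted replicate 1 was 4.76 times that in replicate 2, whereas for Ccl22 this ratio was 1.64. Scaled to the library total only, Ccl17 had 1.90 CPM in Chaf1b-deleted replicate 2 (95% Wilson interval 1.36 to 2.64, counting error only), which overlapped the interval of control replicate 2 (0.827 to 1.69). The log2 fold change of Ccl17 was 2.27 (standard error 0.72) with all libraries, but 0.73 without Chaf1b-deleted replicate 1. Cx3cl1, the chemokine gene between them, was chosen for its position after its values were seen, and had 16 and 14 counts in the controls against 74 and 72 after deletion. Ccr4, the receptor of both ligands, had 6 and 12 counts in the controls against 61 and 89, with higher counts in both deleted libraries (log2 fold change 3.30, standard error 0.58, adjusted p = 0.0771 in edgeR's quasi-likelihood test). Ccr4 missed the threshold, and unlike both of its ligands it had more CPM in Chaf1b-deleted replicate 2 (4.54) than in replicate 1 (2.80).

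Ccr7 (ENSMUSG00000037944, chromosome 11 from 99005510 to 99016391, minus strand), the receptor that steers mature dendritic cells to lymph nodes, had 38 and 105 counts in the controls against 825 and 374 in the Chaf1b-deleted libraries. The levels were 1.67, 4.07, 37.9 and 19.1 CPM, so the lower deleted library was still several times above the higher control. Its log2 fold change of 3.30 (standard error 0.51) lay between 2.72 and 4.08 in the fits that lacked 1 library each. Of its ligands, Ccl19 had 0 counts in every library, which allows up to 0.118 to 0.162 CPM by counting error, but 100% of its exonic windows of 31 bases are repeated at other places in the genome and reads with more than 1 alignment were not counted, so its level is uncertain. Ccl21a and Ccl21b were not analysed here.

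Fscn1 (ENSMUSG00000029581, chromosome 5 from 143722022 to 143734864, plus strand), the actin-bundling protein of dendrites, had 32 and 67 counts in the controls against 606 and 493 after deletion. Its 27.8 and 25.2 CPM in the deleted libraries had the ratio nearest to 1 of the 10 genes (1.11), against 1.41 and 2.59 CPM in the controls. The log2 fold change was 3.72 (standard error 0.37). Relatives of Fscn1 were low, with 8, 24, 9 and 18 counts of Fscn2 and between 1 and 6 of Fscn3.

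Cd83 (ENSMUSG00000015396, chromosome 13 from 43880476 to 43898499, plus strand) had 30 and 61 counts in the controls against 316 and 164 after deletion, or 1.32, 2.36, 14.5 and 8.37 CPM. The groups did not overlap, and the log2 fold change was 2.63 (standard error 0.47).

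Il4i1 (ENSMUSG00000074141, chromosome 7 from 52071740 to 52096179, plus strand), a secreted oxidase of aromatic amino acids, had 105 and 256 counts in the controls against 661 and 469 after deletion. Its 4.63 and 9.91 CPM in the controls were well apart, yet both stayed below the 30.4 and 23.9 CPM of the deleted libraries (log2 fold change 1.90, standard error 0.39). Exons of Il4i1 overlap those of Nup62 on the same strand and of Atf5 on the other, so its counts are less certain. Nup62 had 136 and 135 CPM in the controls against 111 and 85.4 after deletion, and Atf5 had 205 and 248 counts against 645 and 235. Both were looked up for this overlap.

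Apol7c (ENSMUSG00000044309, chromosome 15 from 77355297 to 77363745, minus strand), of the apolipoprotein L family, had 35 and 37 counts in the controls against 561 and 267 in the Chaf1b-deleted libraries. These were 1.54, 1.43, 25.8 and 13.6 CPM, with near-equal controls and a log2 fold change of 3.72 (standard error 0.42). Its exonic sequence is repeated elsewhere in the genome for 65.3% of all windows of 31 bases, so part of its reads could not be placed and its counts are uncertain. The relatives Apol7a, Apol7b, Apol7e and Apol10a had at most 4 counts in any library. Apol9a had 0 counts in the controls, 44 in Chaf1b-deleted replicate 1 and 2 in replicate 2, and Apol8 had 18, 102, 53 and 70.

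Relb (ENSMUSG00000002983, chromosome 7 from 20191566 to 20214787, minus strand) was the most even of the 3 transcription factors. It had 167 and 188 counts in the controls against 562 and 376 after deletion, or 7.36, 7.28, 25.8 and 19.2 CPM. The controls were almost identical, both deleted libraries stood above them, and the log2 fold change was 1.62 (standard error 0.28).

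Batf3 (ENSMUSG00000026630, chromosome 1 from 192922293 to 192932822, plus strand) was the lowest in counts, with 6 and 24 in the controls against 57 and 30 after deletion. Its 0.264, 0.929, 2.62 and 1.53 CPM did not overlap between the groups, but the interval of Chaf1b-deleted replicate 2 (1.14 to 2.32 CPM, scaled to the library total) met that of control replicate 2 (0.635 to 1.41). The log2 fold change was 1.78 (standard error 0.69). Its relative Batf had 23.4 and 14.9 CPM in the controls against 18.8 and 13.6 after deletion, and Batf2 had between 6 and 31 counts.

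Zbtb46 (ENSMUSG00000027583, chromosome 2 from 181122467 to 181194131, minus strand), which marks committed conventional dendritic cells, did not follow the other genes. It had 125 and 163 counts in the controls against 112 and 175 after deletion, or 5.51, 6.31, 5.15 and 8.93 CPM, with the lowest and the highest value both in deleted libraries. The log2 fold change was 0.25 (standard error 0.39), and it turned to -0.18 without Chaf1b-deleted replicate 2.

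**Figure D2:**
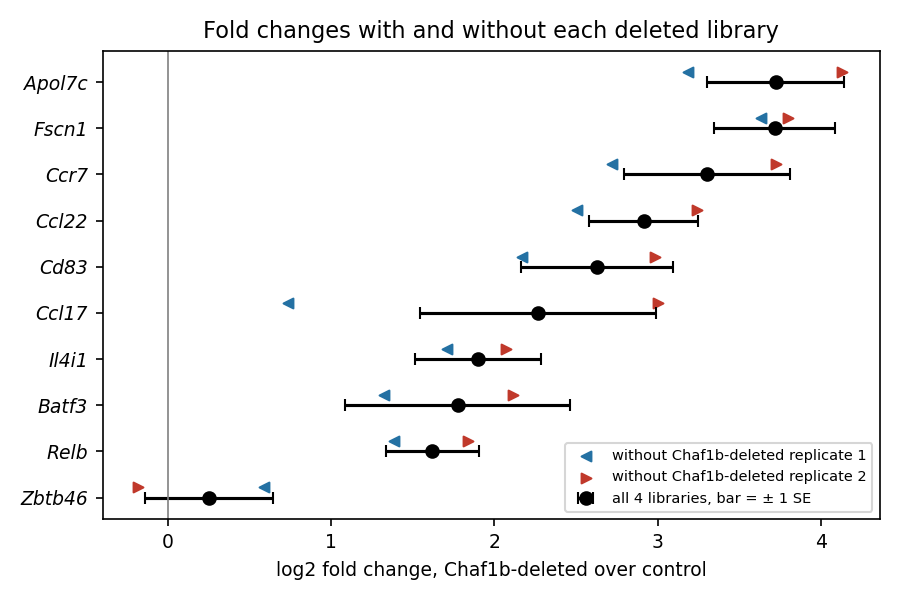
Log2 fold change of each of the 10 genes, Chaf1b-deleted over control, with bars of 1 standard error, and the same value with Chaf1b-deleted replicate 1 (blue) or replicate 2 (red) left out. The value of Ccl17 drops from 2.27 to 0.73 without replicate 1, while that of Fscn1 hardly moves and that of Zbtb46 lies around 0.

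Per length, the genes were compared as CPM per kb of annotated exon, scaled to the library total. In the controls all 10 lay within a narrow range, from 0.671 ± 0.289 for Fscn1 to 2.29 ± 0.540 for Ccl22 (SD, n = 2), and each gene overlapped the next one in the order. After deletion they spread out, from 0.836 ± 0.392 for Zbtb46 to 16.8 ± 4.21 for Ccl22 (SD, n = 2). Ccl22, Ccr7 (14.0 ± 5.29), Ccl17 (9.51 ± 8.22), Apol7c (9.37 ± 3.24) and Fscn1 (8.70 ± 0.223) followed each other with overlapping libraries. Il4i1 (6.53 ± 0.464) lay below both Fscn1 libraries, Relb (5.68 ± 0.639) and Cd83 (4.98 ± 1.44) overlapped each other, and Batf3 (2.84 ± 0.792) and Zbtb46 were each separate at the bottom. Zbtb46, at 0.700 ± 0.0762 (SD, n = 2) in the controls, was the one gene whose libraries overlapped between the groups.

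**Figure D3:**
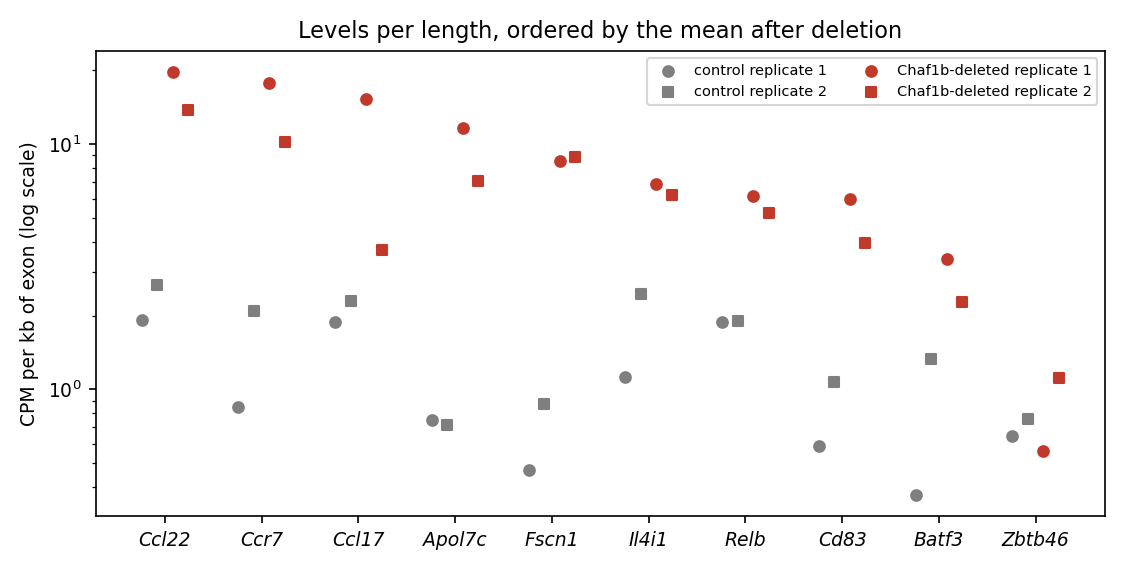
Level of each of the 10 genes per kb of exon (CPM per kb, log axis) in the 2 control (gray) and 2 Chaf1b-deleted (red) libraries, ordered by the mean after deletion. The gray points of all genes lie between 0.371 and 2.67, while the red ones reach from 0.559 for Zbtb46 to 19.7 for Ccl22.

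Within the Chaf1b-deleted group, 9 of the 10 genes were higher in replicate 1, the library with high interferon-stimulated genes, and Zbtb46 was higher in replicate 2. In 5 genes the counting intervals of the 2 deleted libraries were fully apart in that direction. The summed level of the 10 genes was 228 CPM in Chaf1b-deleted replicate 1 and 152 in replicate 2, against 29.1 and 42.2 in the controls. For the 25 interferon-stimulated genes the ratio between the deleted libraries was 6.64. In Chaf1b-deleted replicate 1, all 25 of these were over 2-fold above the mean control on the scale of log2 CPM with 0.5 added, as were 9 of the 10 dendritic cell genes. In replicate 2, 1 of the 25 and 7 of the 10 were on that scale, which understates the change of low genes such as Batf3. Without replicate 1, the median log2 fold change was 1.94 for the 10 genes and 0.25 for the interferon-stimulated genes. The part of the interferon genes in the higher level of replicate 1 was not tested.

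**Figure D4:**
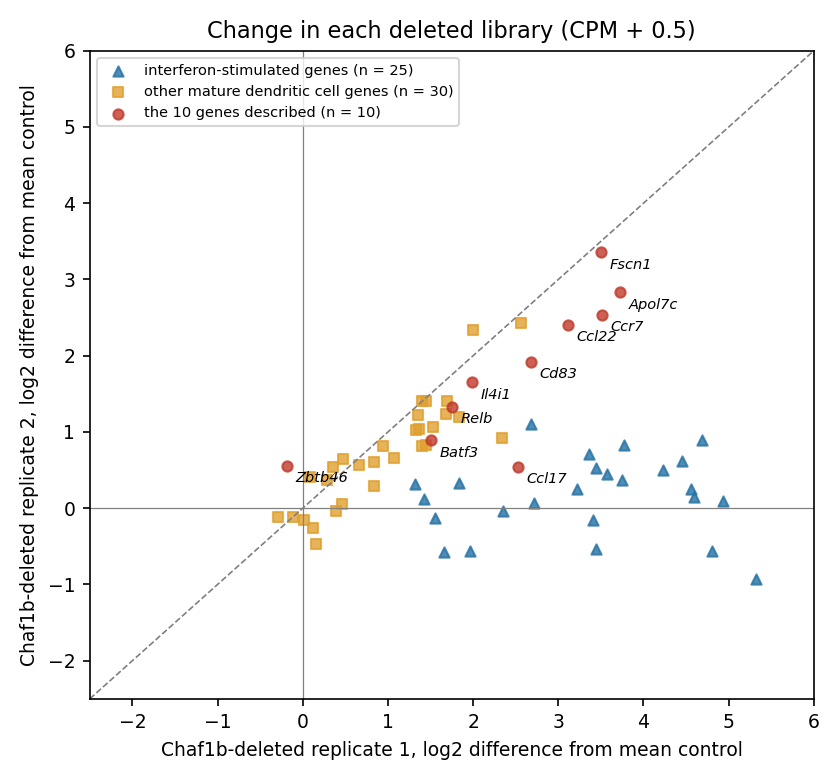
Log2 difference from the mean control (CPM with 0.5 added) in Chaf1b-deleted replicate 1 (x axis) against replicate 2 (y axis) for the 10 genes (red), 30 other mature dendritic cell genes (yellow) and 25 interferon-stimulated genes (blue), with the diagonal dashed. The interferon-stimulated genes lie far to the right and near 0 in height, whereas most of the 10 genes lie near the diagonal and Ccl17 lies among the interferon-stimulated genes.

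The 10 genes are part of a larger maturation program, and 30 other genes of mature dendritic cells were read from the same fit. These include costimulatory proteins, cytokines and survival factors, and they were listed with earlier results of these data known. In 21 of the 30 both deleted libraries lay above both controls (22.3% of all genes did), and in 0 they lay below. Their median log2 fold change was 0.90. An unadjusted p under 0.05 with a higher level was found for 17 of the 30, against 9.15% of all genes, and 0 had one with a lower level. After adjustment 1 was called, Cacnb3, a calcium channel subunit, which rose from 1.58 ± 0.118 to 11.2 ± 0.773 CPM (SD, n = 2; log2 fold change 2.82, standard error 0.36, adjusted p = 0.0367 in edgeR's quasi-likelihood test). The count depended on the processing, as did that of all 16500 genes called higher (61 in the main fit). It was 12 by the exact test (537 of all genes) and 10 by DESeq2 (472 of all genes). With library size only it was 0, and the adjusted p of Cacnb3 was 0.0583. It was also 0 where every library had to reach 10 counts (0.0651).

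Others of the 30 missed the threshold. Slco5a1 had 14 and 11 counts in the controls against 78 and 91 after deletion (adjusted p = 0.0713, same test). Il12b, a subunit of the cytokines IL-12 and IL-23, had 2 and 4 counts against 23 and 15, and Cd200, an inhibitory surface ligand, had 3 and 2 against 24 and 11. Both were thus near the counting floor of 3 in the controls. The costimulatory genes, outside the rule for naming and picked after their values were seen, differed from each other. Cd80 had 4.10 and 3.64 CPM in the controls against 11.1 and 11.1 after deletion, whereas Cd86 overlapped, with 3.17 and 9.52 against 11.8 and 7.86. Cd40, a receptor through which T cells license dendritic cells, had 6 and 27 counts in the controls against 116 and 33 in the deleted libraries.

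Genes of the conventional dendritic cell lineage were read in the same way. Of 24, 22 were tested, 1 was called higher and 0 lower, against 0.370% and 0.00606% of all genes, and 10 of the 24 were higher in both deleted libraries, against 22.3%. The median log2 fold change was 0.44. Flt3, the receptor for the growth factor of dendritic cells, is not particular to them, and the authors list it with Cd34 among progenitor genes. Flt3 rose from 4.95 ± 0.392 to 21.1 ± 0.373 CPM (SD, n = 2; log2 fold change 2.09, adjusted p = 0.0383 in edgeR's quasi-likelihood test). This call was lost with DESeq2's size factors (adjusted p = 0.0503), with library size only (0.0585) and where every library had to reach 10 counts (0.0651). Itgax, which encodes CD11c, had 5.33 and 6.23 CPM in the controls against 23.4 and 13.6 after deletion (adjusted p = 0.115, same test). Mycl had 5 and 9 counts against 29 and 25, and Tlr3 had 4 and 12 against 20 and 11. Surface markers of the lineage are named here after their values were seen, and they varied. Clec9a had between 8 and 20 counts and Cd209a between 1 and 10, and both overlapped between the groups. Mgl2 was abundant and also overlapped, with 72.5 and 166 CPM in the controls against 181 and 56.7 after deletion. Xcr1 had 1.72 and 1.66 CPM against 2.16 and 3.52, and Dpp4 had 12.4 and 14.1 against 19.5 and 21.2, so that in both the deleted libraries were higher without passing the test (adjusted p = 0.593 and 0.374 in edgeR's quasi-likelihood test).

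Antigen presentation genes varied between replicates. The 7 genes of this list (MHC class II and its activator Ciita) together had 196 and 983 CPM in the controls against 1361 and 471 after deletion, so that the groups overlapped, and 0 of the 7 were called or had an unadjusted p under 0.05 in edgeR's quasi-likelihood test. H2-Aa, for one, had 522 and 4341 counts in the controls against 5390 and 1605. In plasmacytoid dendritic cell genes, 8 of 10 were tested, 0 were called and 5 had an unadjusted p under 0.05 with a higher level, against 9.15% of all genes (median log2 fold change 1.35). Among them, Spib had 31 and 84 counts in the controls against 264 and 109 after deletion, Ly6d had 16 and 16 against 68 and 26, Siglech had 18 and 5 against 38 and 27, and Pacsin1 had 5 and 3 against 13 and 17.

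RelB works within the NF-kB family, and the 15 other subunits, inhibitors and kinases of that pathway had a median log2 fold change of 0.22. Of these, 1 was called higher (0.370% of all genes were) and 0 lower, and 7 had an unadjusted p under 0.05 with a higher level (9.15% of all genes had). Nfkbiz, an atypical inhibitor that also acts as a coactivator, rose from 32.7 ± 4.13 to 94.7 ± 5.94 CPM (SD, n = 2; log2 fold change 1.53, adjusted p = 0.0413 in edgeR's quasi-likelihood test). The call of Nfkbiz was lost in these 3 settings too (adjusted p = 0.0503, 0.0583 and 0.0651). The feedback inhibitors Nfkbia (114 ± 1.83 and 250 ± 72.5 CPM) and Tnfaip3 (42.9 ± 4.13 and 88.2 ± 1.78), and Map3k14 (13.7 ± 3.52 and 28.2 ± 3.75), the kinase that activates the RelB arm, had higher means after deletion (SD, n = 2 each) without passing the adjusted threshold. Nfkb2, the usual partner of RelB, was named after its values were seen and had 33.1 and 25.9 CPM in the controls against 61.8 and 53.0 after deletion.

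Of 22 ligands, receptors and relatives of the 10 genes, 20 were matched, 10 were tested and 0 were called. Of those tested, 2 had an unadjusted p under 0.05 with a higher level, Ccr4 and Csf2 (9.15% of all genes had). Csf2, whose product GM-CSF drives dendritic cell growth in culture, had 2 and 2 counts in the controls against 19 and 10 after deletion. Apol10b had 5, 2, 11 and 9 counts, and Il13 had 20, 22, 32 and 20.

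Markers of other cells that could carry these transcripts were summed over each list. The 12 monocyte and macrophage markers reached 2721 and 4306 CPM in the controls against 5908 and 3428 after deletion, with 0 called. Of the 12, 4 had an unadjusted p under 0.05 with a higher level in edgeR's quasi-likelihood test (9.15% of all genes had). The macrophage gene C1qa, named after its values were seen, had 15 and 589 counts in the controls against 249 and 8 after deletion. Both deleted libraries lay above both controls in 4 of the 12, Adgre1, Cd14, Fcgr1 and Cx3cr1 (22.3% of all genes did), and below them in 0. The 6 B cell markers had 17.5 and 21.0 CPM in the controls against 35.9 and 26.5 after deletion, and 0 were called. All 6 were higher in both deleted libraries (22.3% of all genes were), and their median log2 fold change was 0.90. For the 8 T and NK cell markers the range was 62.4 to 97.2 CPM, mostly from Nkg7. Cd3e, Cd3g, Cd4 and Cd8a had at most 9 counts in a library, but Cd3d had 43 and 47 in the controls against 50 and 34. The 7 mast cell and basophil markers summed to between 528 and 831 CPM, and the 6 stem and progenitor markers to between 3683 and 5169. In both lists the sums overlapped between the groups and 0 genes were called. In each of these lists 2 genes were higher in both deleted libraries and 1 was lower. Of the 16500 genes tested, 3676 were higher in this way and 3539 lower, so nothing is read from these counts. In the B, T and NK cell and stem cell lists the exact test and DESeq2 also called 0 higher, with 1, 0 and 1 genes at an unadjusted p under 0.05 and higher in edgeR, and both tools called 1 monocyte or macrophage gene and 1 mast cell or basophil gene. The part of these cells in the levels of the 10 genes was not tested.

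The genes whose levels over the 4 libraries were most like those of the 3 leading genes came from various functions. Likeness was the distance between centered log2 CPM profiles (with 0.5 CPM added) over 16490 candidates. Nearest to Ccl22 were Arc (distance 0.082), Hist1h2ba (0.117) and Fbp1 (0.207). For Fscn1 they were Cdkn1c (0.328), Gdf15 (0.524) and Apoa1 (0.544), and for Apol7c Gm13546 (0.496), Hist1h2aa (0.520) and Hist3h2ba (0.526). Hist1h2ba and Hist1h2aa had 0 counts in control replicate 1.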

How the data were processed

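Total RNA of 4 HSPC libraries, 2 control and 2 Chaf1b-deleted, grouped by their sample labels, was ribo-depleted and sequenced with a stranded kit. The authors aligned reads to mm9 with STAR and counted them with HTSeq, and the deposited values are raw counts per Ensembl gene. The annotation release and strand setting are not given in the sources used here. Of 43629 identifiers, 33068 were named from the NCBIM37 (mm9) annotation and 10561 were not. HTSeq's lines for reads in no gene or in several (38.6% to 50.5% of uniquely aligned reads) and for non-unique alignments stayed out of library sizes.

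Counts were filtered by edgeR (minimum count 10), normalized by TMM (factors 0.925 to 1.06) and compared by glmQLFit and glmQLFTest without a covariate. Replicates differed by more than sampling noise (chi-square per degree of freedom 39.1 and 59.7). Tools were edgeR 4.0.16, limma 3.58.1 and R 4.3.3. Genes were called at 1.5-fold and a Benjamini-Hochberg adjusted p under 0.05 over all tested genes. The fit was also run on simulated counts with the same dispersion for all genes. Whole sets of genes differed between replicates here, so that run cannot vouch for these calls. Alternatives were other normalizations, filters, thresholds and tests (DESeq2 1.42.0), a replicate block and each library left out. Wilson intervals (95%) and the floor of 3 counts cover counting error only, since reads carry no molecular identifiers.

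The 10 genes and all lists were chosen with earlier results of these data known. Named were the 10 genes and, per list, called genes and then those with the largest log2 fold change, up to 4, unless said otherwise. Sequences are from RefSeq (GRCm38.p6), motifs were searched on both strands, and gene coordinates are those of NCBIM37, counted from 1. Of all listed genes, Ccl21a and Ccl21b were not analysed here.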

Additional observations from a re-analysis of the deposited data

How the results depend on the processing

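Across all alternatives tried, 9 of the 10 dendritic cell genes, all but Zbtb46, kept a positive log2 fold change wherever they were tested. The counts of called genes moved more, and the cause was not tested. Below, counts are of genes called higher, in the order all genes, the 10 genes, other mature dendritic, conventional dendritic and NF-kB genes, where the values of reference are 61, 3, 1, 1 and 1. DESeq2's size factors gave 27, 3, 1, 0 and 0, library size only 30, 3, 0, 0 and 0, and upper-quartile normalization 52, 3, 2, 1 and 1. Without a low-count filter the counts were 808, 8, 15, 3 and 5 (79 lower genes), and the exact test gave 537, 7, 12, 3 and 4 (37 lower) and DESeq2 472, 8, 10, 2 and 5 (34 lower). A minimum of 10 counts in every library, which excluded Batf3, gave 3, 0, 0, 0 and 0 (0 lower), with 8 of the 9 genes still at an unadjusted p under 0.05 in edgeR. At 2-fold and an adjusted p under 0.01 the counts were all 0 (0 lower), with 9 of the 10 under an unadjusted 0.05. In the other lists, calls without a filter, by the exact test and by DESeq2 were 24, 12 and 1 of the interferon-stimulated genes, 3, 2 and 1 of the relatives, 2, 0 and 1 of the plasmacytoid genes and 1, 0 and 0 of the MHC class II genes.

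The replicate number as a block gave 14, 0, 0, 0 and 0 (0 lower), with 8 of the 10 genes at an unadjusted p under 0.05. Nothing in the labels pairs the libraries beyond the number, and same-numbered libraries did not deviate together (correlation 0.0181 over 16500 genes).

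With each library left out in turn, the lone library being assumed to vary like the other group, between 125 and 331 genes were called higher and 6 to 42 lower, 4 to 7 of the 10 genes, 3 to 7 of the other mature, 1 to 3 of the conventional, 0 to 1 of the plasmacytoid, 0 to 5 of the MHC class II, 1 to 2 of the NF-kB, 1 to 1 of the relatives and 0 to 24 of the interferon-stimulated genes (0 without Chaf1b-deleted replicate 1). The log2 fold change turned in sign for Zbtb46 (-0.18 to 0.59), H2-Eb1 (-0.12 to 3.01), H2-Aa (-0.23 to 2.84), H2-Ab1 (-0.22 to 2.12), Ifit1 (-0.62 to 4.93), Ifit3 (-1.44 to 5.73), Mertk (-2.89 to 1.48), Nkg7 (-0.55 to 0.014), Cd3d (-0.10 to 0.32), Fcer1a (-0.014 to 1.33), Cpa3 (-0.071 to 1.29) and Gata2 (-0.49 to 0.095). Batf3 and Ccl17 had at most 30 counts in a control, and how depth bears on them was not tested.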
